A study of Mus musculus with 6 samples.

Results

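The 48 genes described here act in G2 phase and mitosis: cyclins A2 and B with their kinase, the spindle checkpoint, the kinetochore, mitotic kinesins, condensin and the cytokinesis machinery. They were chosen by name from the 49592 genes of the deposited table, and all 48 were found there. Their transcripts were measured by poly(A) RNA sequencing of C2C12 cells, a mouse myoblast line that leaves the cell cycle and fuses into multinucleated myotubes in low serum. Cells were grown in DMEM with 10% FBS, moved to 2% HS for 3 days of differentiation, and then given 10 ng/ml TWEAK for 12 h in 3 libraries or left untreated in the other 3, numbered by trial. TWEAK is a TNF-family cytokine whose receptor is Fn14. All libraries come from 1 cell line, and no vehicle is named for the untreated cells. The labels do not state that each trial was its own culture, and the p-values below therefore speak of the variation among these 6 libraries alone. The comparison was made to learn how TWEAK promotes the fusion of myoblasts with myotubes.

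Entry into mitosis is driven by CDK1 bound to cyclins A and B, and exit follows once the anaphase-promoting complex, a ubiquitin ligase, marks cyclin B and securin for destruction. Most genes of this machinery are transcribed in a wave in G2. In resting cells they are held silent by the DREAM complex, whose MuvB core later joins B-MYB and FOXM1 to activate them. Nuclei inside myotubes normally do not divide, and these transcripts are known to decline as myoblasts differentiate.

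With TWEAK, transcripts of 30 of the 48 genes rose and those of 0 fell, at an adjusted p of 0.05 in limma over the 12770 genes with a mean of at least 0.5 FPKM. FPKM is a fragment count per gene length and depth. All 48 passed that minimum, the lowest being Cdc25c. Of all tested genes, 8.98% rose and 6.10% fell. Of the 18 genes that did not pass, 11 had an unadjusted p under 0.05, all with the higher level in TWEAK. The share of all tested genes under that unadjusted threshold was not computed, so the 11 cannot be set against it. With limma-voom on reads recovered from the FPKM values, 30 rose and 0 fell, against 9.22% and 7.39% of all tested genes. The median log2 fold change of the 48 was 0.59, on the log2(FPKM + 1) scale used throughout, against 0.01 for all tested genes. All 48 fold changes were above 0. The ratio of mean FPKM was above 2 for 3 genes (Ncapg, Birc5 and Nusap1), between 1.5 and 2 for 28, and below 1.5 for 17. All 3 TWEAK libraries lay above all 3 untreated libraries for 33 of the 48, against 20.0% of all tested genes, and below them for 0, against 15.9%. In RNA from whole cultures, more dividing cells and more of these transcripts per cell cannot be told apart.

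**Figure D1:**
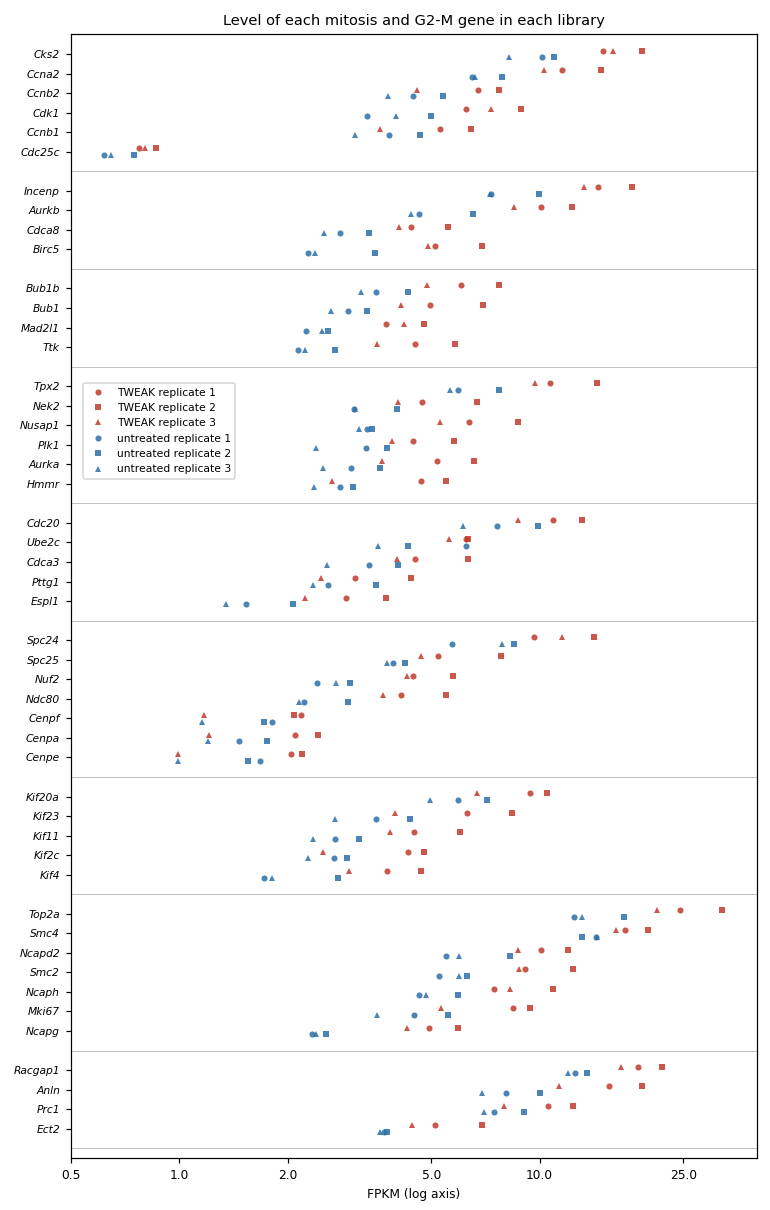
FPKM on a log axis for each gene in each of the 6 libraries, TWEAK in red above untreated in blue, with a marker shape per replicate; grey lines separate the roles. Within each colour, TWEAK replicate 2 is the highest TWEAK library for 47 of 48 genes and untreated replicate 2 the highest untreated library for 44.

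Summed over the 48 genes, the libraries held 352.1, 444.6 and 303.2 FPKM in TWEAK replicates 1, 2 and 3, against 216.0, 259.5 and 202.1 FPKM in untreated replicates 1, 2 and 3. Every TWEAK sum lay above every untreated sum, and trial 2 was the highest of each group and trial 3 the lowest. TWEAK replicate 3 was the lowest TWEAK library for 42 of the 48 genes, and untreated replicate 3 the lowest untreated library for 32. The number called differed when the trial entered the fit. With the trial as a replicate block, 43 genes rose and 0 fell, against 15.4% and 12.5% of all tested genes. These 43 included all 30. The 5 that did not pass either way were Cdc25c, Pttg1, Cenpa, Cenpe and Cenpf.

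Single libraries also moved the number called. It was 19 without TWEAK replicate 2 and 17 without untreated replicate 3, and 39 without TWEAK replicate 3. Over all tested genes, the number that rose in these fits was 501, 741 and 958, against 1147 with all 6 libraries. Of the 30 genes, 17 kept their call whichever library was left out. The share of all called genes that did so was not computed, so the 17 cannot be set against it. With no minimum level, where 26302 genes were tested, 6 of the 48 rose: Ncapg, Mad2l1, Cks2, Racgap1, Incenp and Nuf2. Of all 26302 genes, 499 rose in that fit, fewer than the 1147 in the main fit. The authors' deposited table, which gives a mean above 0 to 2337 genes listed at 0 in all 6 libraries, has an adjusted p under 0.05 and a positive log2 fold change for 21 of the 48, all 21 among the 30, and for 11.2% of the genes to which it gives an adjusted p.

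**Figure D2:**
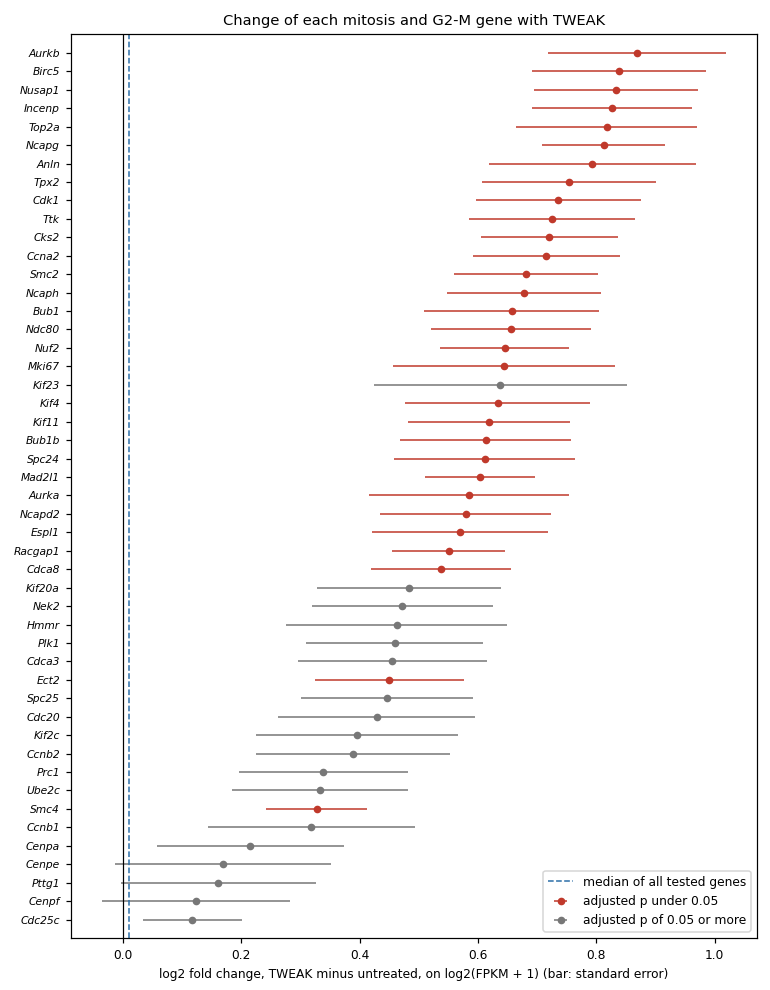
Log2 fold change (TWEAK minus untreated, log2(FPKM + 1)) of each gene with its standard error, ordered by size; red marks an adjusted p under 0.05. All 48 points lie right of 0, from 0.12 for Cdc25c to 0.87 for Aurkb, and the dashed line marks the median of all tested genes at 0.01. Adding 1 before the log shrinks changes most at low levels. By ratio of mean FPKM the 48 run from 1.16 for Cenpf to 2.08 for Ncapg.

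The libraries held 29952504 to 40903143 reads recovered from the FPKM steps, and for 46 of the 48 genes, those whose reads share no chosen common factor, a library held from 123 reads (Pttg1) to 5831 (Top2a). Nfkb2 and Ccl2, known targets of NF-kB signalling, rose by ratios of 3.52 and 63.98 (limma adjusted p = 1.44e-05 and 1.61e-06), while Tnfrsf12a, the gene of Fn14, was at a ratio of 0.99. All 12 myotube markers were tested, with summed levels of 15328 to 17841 FPKM with TWEAK and 17941 to 19236 FPKM in untreated cells. Of these, 3 fell (Myh3, Myh8 and Ttn), against 6.10% of all tested genes in the main fit, and 4 with the replicate block, against 12.5%. Of 10 markers of undifferentiated or reserve myoblasts, 2 rose and 4 fell, against 8.98% and 6.10% of all tested genes in the main fit. With the replicate block 3 rose and 5 fell, against 15.4% and 12.5%. The summed levels of these 10 markers were 140 to 186 FPKM with TWEAK and 135 to 172 FPKM in untreated cells. Cd34 and Msc rose, Msc being at 0.817 FPKM with TWEAK and 0.416 FPKM in untreated cells with a call that held in 1 of the 6 fits that left out a library, while Id1, Id3, Myf5 and Heyl fell. Among 7 macrophage and leukocyte markers, 2 reached the minimum level and Cd14 rose, with a call that did not hold in every fit that left out a library. Sums over the 7 were 5.40 to 6.67 FPKM with TWEAK and 4.45 to 5.03 FPKM in untreated cells, and Adgre1 was at 0 in every library. None of the 5 endothelial markers reached the minimum, 0 of 6 fibroblast markers passed, and of 2 tested adipocyte markers Pparg fell, while Plin1 was at 0 in every library. The part of any of these cells in the rise of mitosis and G2-M transcripts was not tested.

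Many promoters of this wave hold a cell cycle genes homology region, or CHR, which MuvB binds, and CCAAT boxes, which NF-Y binds. RefSeq promoters of build GRCm38.p6 matched 40 of the 48 genes, all but Ccna2, Aurkb, Incenp, Tpx2, Spc24, Smc4, Cdc25c and Kif20a. The 250 bases before the gene start were searched on both strands for the letters TTTGAA or TTTAAA as CHR and CCAAT as CCAAT box; matches of different motifs may overlap. A CHR form was present for 19 of the 40 genes (47.5%), against 20.5% of 9507 tested genes with a promoter. A CCAAT box was present for 31 (77.5%), against 40.9%, and both for 17 (42.5%), against 7.85%. A CHR form was found for 10 of 24 genes that rose and 9 of 16 that did not pass, and a CCAAT box for 17 and 14 of them. A match is a run of letters, not a measured binding site. The following sequences are the 120 bases before the start, 5′ to 3′ on the gene's strand, for 8 genes that hold both motifs there, with the motif letters in capitals, as ATTGG or TTCAAA where the match lies on the other strand. The first 4 come from genes that rose and the last 4 from genes that did not pass; they were chosen after the values were seen.
Cdk1 (chr10:69352913-69353032, minus strand): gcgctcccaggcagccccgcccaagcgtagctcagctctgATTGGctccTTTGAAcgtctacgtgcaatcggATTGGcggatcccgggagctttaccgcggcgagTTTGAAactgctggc
Top2a (chr11:99024190-99024309, minus strand): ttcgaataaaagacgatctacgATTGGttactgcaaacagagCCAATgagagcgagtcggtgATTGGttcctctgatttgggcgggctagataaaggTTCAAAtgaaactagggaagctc
Kif11 (chr19:37376262-37376381, plus strand): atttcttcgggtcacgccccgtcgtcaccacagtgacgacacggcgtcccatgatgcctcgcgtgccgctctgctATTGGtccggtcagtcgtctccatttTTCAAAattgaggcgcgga
Espl1 (chr15:102296173-102296292, plus strand): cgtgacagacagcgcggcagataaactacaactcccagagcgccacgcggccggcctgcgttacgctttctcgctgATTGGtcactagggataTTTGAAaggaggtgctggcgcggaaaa
Ccnb1 (chr13:100786487-100786606, minus strand): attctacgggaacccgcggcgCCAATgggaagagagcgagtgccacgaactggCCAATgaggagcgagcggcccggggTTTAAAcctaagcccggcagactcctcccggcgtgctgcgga
Plk1 (chr7:122159315-122159434, plus strand): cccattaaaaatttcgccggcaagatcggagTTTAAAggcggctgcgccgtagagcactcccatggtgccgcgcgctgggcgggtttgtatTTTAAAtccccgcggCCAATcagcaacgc
Cdc20 (chr4:118437344-118437463, minus strand): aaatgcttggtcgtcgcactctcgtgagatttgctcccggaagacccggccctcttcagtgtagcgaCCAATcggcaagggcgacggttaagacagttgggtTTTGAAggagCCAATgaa
Ube2c (chr2:164769809-164769928, plus strand): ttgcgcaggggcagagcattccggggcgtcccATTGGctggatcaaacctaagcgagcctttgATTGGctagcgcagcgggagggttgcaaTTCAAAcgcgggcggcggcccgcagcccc

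Of the 6 genes for CDK1, its cyclins and its activators, 3 rose and 0 fell (median log2 fold change 0.55). Cdk1, the kinase that starts mitosis (ENSMUSG00000019942.14, GRCm39 chromosome 10, 69170976 to 69188768), had 6.25, 8.85 and 7.33 FPKM with TWEAK, against 3.32, 4.98 and 3.997 FPKM in untreated cells in replicates 1, 2 and 3 (limma log2 fold change 0.74 ± 0.14 SE, adjusted p = 0.00879). Ccna2, the cyclin of S and G2 phase, had 11.6, 14.8 and 10.3 FPKM with TWEAK, against 6.49, 7.87 and 6.62 FPKM in untreated cells (limma log2 fold change 0.72 ± 0.12 SE, adjusted p = 0.00627). Cks2, a small subunit that binds CDK1, had 14.97, 19.2 and 16.01 FPKM with TWEAK, against 10.1, 10.9 and 8.20 FPKM in untreated cells (limma log2 fold change 0.72 ± 0.12 SE, adjusted p = 0.0046). In these 3 genes every TWEAK library exceeded every untreated one, and all 3 calls held without any single library. The genes of the B cyclins, which carry the cell into mitosis, did not pass. Ccnb1 had 5.30, 6.46 and 3.60 FPKM with TWEAK, against 3.82, 4.66 and 3.08 FPKM in untreated cells (limma log2 fold change 0.32 ± 0.18 SE, adjusted p = 0.258). For Ccnb1, TWEAK replicate 3 lay among the untreated libraries, and within each trial TWEAK was the higher. Ccnb2 was 1.39-fold higher in mean, with overlapping groups (limma adjusted p = 0.146). With the replicate block the adjusted p was 0.00725 for Ccnb1 and 0.0021 for Ccnb2, and without TWEAK replicate 3 it was 0.0497 and 0.0216. Cdc25c, a phosphatase that activates CDK1, had 0.774, 0.863 and 0.803 FPKM with TWEAK, against 0.620, 0.751 and 0.646 FPKM in untreated cells (limma log2 fold change 0.12 ± 0.08 SE, adjusted p = 0.384). Its groups were narrow and did not overlap, but its level was the lowest of the 48.

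All 4 genes of the chromosomal passenger complex rose (median log2 fold change 0.83). This complex corrects faulty attachments of chromosomes to the spindle. Its kinase Aurkb (ENSMUSG00000020897.13, GRCm39 chromosome 11, 68936473 to 68942490) had 10.1, 12.3 and 8.50 FPKM with TWEAK, against 4.63, 6.54 and 4.39 FPKM in untreated cells (limma log2 fold change 0.87 ± 0.15 SE, adjusted p = 0.00607). Birc5, which encodes survivin, had 5.11, 6.90 and 4.90 FPKM with TWEAK, against 2.28, 3.50 and 2.38 FPKM in untreated cells (limma log2 fold change 0.84 ± 0.15 SE, adjusted p = 0.00642), a ratio of means of 2.07. In both genes the untreated library of trial 2 stood above the other two and still below every TWEAK library. The scaffold Incenp had 14.5, 18.1 and 13.3 FPKM with TWEAK, against 7.34, 9.98 and 7.27 FPKM in untreated cells (limma log2 fold change 0.83 ± 0.13 SE, adjusted p = 0.00482). Cdca8, which encodes borealin, had 4.39, 5.56 and 4.06 FPKM with TWEAK, against 2.80, 3.37 and 2.52 FPKM in untreated cells (limma log2 fold change 0.54 ± 0.12 SE, adjusted p = 0.0164). Groups were apart in all 4 genes, and the smallest ratio of means, for Cdca8, was 1.61. The Cdca8 call was lost when TWEAK replicate 2 or untreated replicate 1 or 3 was left out (limma adjusted p 0.0514 to 0.0605). Cdca8 overlaps 9930104L06Rik, a gene of similar level (3.90 FPKM with TWEAK and 3.69 FPKM in untreated cells), so part of its reads may be uncertain.

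The 4 spindle checkpoint genes rose as well (median log2 fold change 0.64). They delay anaphase until every kinetochore is attached. Mad2l1, whose product holds CDC20 inactive, had 3.75, 4.78 and 4.21 FPKM with TWEAK, against 2.25, 2.58 and 2.50 FPKM in untreated cells (limma log2 fold change 0.60 ± 0.09 SE, adjusted p = 0.00387). The kinase Ttk, also called MPS1, had 4.50, 5.81 and 3.54 FPKM with TWEAK, against 2.14, 2.71 and 2.23 FPKM in untreated cells (limma log2 fold change 0.73 ± 0.14 SE, adjusted p = 0.00979). The groups were apart in both genes, and both calls held without any single library. The kinase Bub1 had 4.96, 6.94 and 4.13 FPKM with TWEAK, against 2.93, 3.33 and 2.64 FPKM in untreated cells (limma log2 fold change 0.66 ± 0.15 SE, adjusted p = 0.0179), and its relative Bub1b, which encodes BUBR1, had 6.03, 7.73 and 4.86 FPKM with TWEAK, against 3.51, 4.31 and 3.20 FPKM in untreated cells (limma log2 fold change 0.61 ± 0.14 SE, adjusted p = 0.0215). TWEAK libraries lay above untreated ones in both. The Bub1 call was lost when untreated replicate 3 was left out (limma adjusted p = 0.0641) and the Bub1b call when TWEAK replicate 2 or untreated replicate 1 or 3 was left out (limma adjusted p 0.0641 to 0.0753).

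Among 6 spindle kinases and assembly factors, 3 rose and 0 fell (median log2 fold change 0.53). Nusap1, which bundles microtubules near chromatin (ENSMUSG00000027306.16, GRCm39 chromosome 2, 119448779 to 119481725), had 6.35, 8.71 and 5.29 FPKM with TWEAK, against 3.32, 3.43 and 3.15 FPKM in untreated cells (limma log2 fold change 0.83 ± 0.14 SE, adjusted p = 0.00533). Its untreated values were close together, and all lay well below the TWEAK values. Tpx2, an activator of Aurora A, had 10.7, 14.5 and 9.69 FPKM with TWEAK, against 5.93, 7.72 and 5.63 FPKM in untreated cells (limma log2 fold change 0.75 ± 0.15 SE, adjusted p = 0.01). Aurka, the Aurora A kinase of spindle poles, had 5.18, 6.58 and 3.65 FPKM with TWEAK, against 2.999, 3.61 and 2.50 FPKM in untreated cells (limma log2 fold change 0.58 ± 0.17 SE, adjusted p = 0.0474). In Aurka the lowest TWEAK value was barely above the highest untreated one, and the call was lost when TWEAK replicate 1 or 2 or untreated replicate 1, 2 or 3 was left out (limma adjusted p 0.069 to 0.147); with quantile normalization the adjusted p was 0.0502. Plk1, the polo-like kinase, had 4.46, 5.78 and 3.89 FPKM with TWEAK, against 3.30, 3.78 and 2.39 FPKM in untreated cells (limma log2 fold change 0.46 ± 0.15 SE, adjusted p = 0.0702). Nek2, a kinase that separates centrosomes, was 1.52-fold higher in mean (limma adjusted p = 0.0695). Hmmr, a spindle-associated hyaluronan receptor, had 4.68, 5.51 and 2.65 FPKM with TWEAK, against 2.80, 3.03 and 2.36 FPKM in untreated cells (limma log2 fold change 0.46 ± 0.19 SE, adjusted p = 0.131), and TWEAK replicate 3 lay below 2 untreated libraries. With the replicate block the adjusted p was 0.000553 for Plk1, 0.000662 for Nek2 and 0.00401 for Hmmr, and without TWEAK replicate 3 it was 0.0485, 0.0322 and 0.00527.

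Of 5 genes acting at the onset of anaphase or through ubiquitin ligases, 1 rose and 0 fell (median log2 fold change 0.43). The gene that rose was Espl1, which encodes separase, the protease that cleaves cohesin. Espl1 (ENSMUSG00000058290.5, GRCm39 chromosome 15, 102204701 to 102232792) had 2.90, 3.74 and 2.23 FPKM with TWEAK, against 1.53, 2.07 and 1.35 FPKM in untreated cells (limma log2 fold change 0.57 ± 0.15 SE, adjusted p = 0.0324). Its groups were apart, yet the call was lost when TWEAK replicate 1 or 2 or untreated replicate 1 or 3 was left out (limma adjusted p 0.0536 to 0.109). Cdc20, the activator of the anaphase-promoting complex, had 10.9, 13.1 and 8.72 FPKM with TWEAK, against 7.64, 9.88 and 6.11 FPKM in untreated cells (limma log2 fold change 0.43 ± 0.17 SE, adjusted p = 0.119). Cdca3, a trigger of mitotic entry, had 4.51, 6.33 and 4.01 FPKM with TWEAK, against 3.36, 4.03 and 2.57 FPKM in untreated cells (limma log2 fold change 0.46 ± 0.16 SE, adjusted p = 0.0889). In both genes TWEAK was the higher library in each trial, while TWEAK replicate 3 lay below untreated replicate 2. Ube2c, the ubiquitin-conjugating enzyme of that complex, had 6.24, 6.34 and 5.59 FPKM with TWEAK, against 6.24, 4.32 and 3.56 FPKM in untreated cells (limma log2 fold change 0.33 ± 0.15 SE, adjusted p = 0.167). Untreated replicate 1 stood out, level with the TWEAK libraries, and without it the Ube2c adjusted p was 0.0189. Ube2c lies across 1662 bases of Tnnc2, a fast muscle troponin gene at 2112 FPKM with TWEAK and 2375 FPKM in untreated cells, so its own level is uncertain. Pttg1, which encodes securin, the inhibitor of separase, had 3.06, 4.38 and 2.47 FPKM with TWEAK, against 2.58, 3.51 and 2.36 FPKM in untreated cells (limma log2 fold change 0.16 ± 0.16 SE, adjusted p = 0.557). With the replicate block the adjusted p was 0.000299 for Cdc20, 0.000592 for Cdca3, 0.0193 for Ube2c and 0.148 for Pttg1. The promoters printed above for Espl1, Cdc20 and Ube2c each hold a CHR form and a CCAAT box, and of these 3 genes Espl1 alone passed. They were chosen for printing with motifs and values known, so which of them passed says nothing about the motifs.

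Of the 7 centromere and kinetochore genes, 3 rose and 0 fell (median log2 fold change 0.45), and the 3 encode parts of the NDC80 complex, which grips spindle microtubules. Ndc80 (ENSMUSG00000024056.11, GRCm39 chromosome 17, 71803095 to 71833852) had 4.13, 5.51 and 3.68 FPKM with TWEAK, against 2.22, 2.94 and 2.15 FPKM in untreated cells (limma log2 fold change 0.66 ± 0.14 SE, adjusted p = 0.0126). Nuf2 had 4.44, 5.73 and 4.29 FPKM with TWEAK, against 2.41, 2.98 and 2.73 FPKM in untreated cells (limma log2 fold change 0.65 ± 0.11 SE, adjusted p = 0.00563). Spc24 had 9.62, 14.1 and 11.6 FPKM with TWEAK, against 5.72, 8.49 and 7.87 FPKM in untreated cells (limma log2 fold change 0.61 ± 0.15 SE, adjusted p = 0.0274). The groups were apart in each, and the Spc24 call was lost when TWEAK replicate 2 or 3 or untreated replicate 1 or 3 was left out (limma adjusted p 0.0541 to 0.0989). Spc25, the fourth subunit, was 1.48-fold higher in mean, with groups apart (limma adjusted p = 0.0707, 0.0028 with the replicate block and 0.0318 without TWEAK replicate 3). The 3 CENP genes did not pass. Cenpe, a kinetochore motor, had 2.04, 2.19 and 0.993 FPKM with TWEAK, against 1.67, 1.55 and 0.995 FPKM in untreated cells (limma log2 fold change 0.17 ± 0.18 SE, adjusted p = 0.581). Cenpf, a large kinetochore protein of G2 and mitosis, had 2.17, 2.08 and 1.17 FPKM with TWEAK, against 1.81, 1.72 and 1.15 FPKM in untreated cells (limma log2 fold change 0.12 ± 0.16 SE, adjusted p = 0.652). Cenpa, the centromeric histone, was at 1.91 ± 0.630 FPKM with TWEAK and 1.48 ± 0.273 FPKM in untreated cells (SD, n = 3 each; limma adjusted p = 0.399). In all 3 CENP genes both libraries of trial 3 were low and nearly equal, and Cenpe was the one gene of the 48 whose TWEAK library did not exceed its untreated partner in every trial. With the replicate block the adjusted p was 0.099, 0.187 and 0.305 for Cenpa, Cenpe and Cenpf. Whether the NDC80 complex genes and the CENP genes differ from each other was not tested.

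Of the 5 mitotic kinesins, 2 rose and 0 fell (median log2 fold change 0.62). Kif11, the motor that pushes spindle poles apart (ENSMUSG00000012443.5, GRCm39 chromosome 19, 37364851 to 37410307), had 4.48, 5.99 and 3.85 FPKM with TWEAK, against 2.70, 3.15 and 2.34 FPKM in untreated cells (limma log2 fold change 0.62 ± 0.14 SE, adjusted p = 0.0169). Kif4, a chromosome-arm motor, had 3.77, 4.69 and 2.96 FPKM with TWEAK, against 1.72, 2.75 and 1.81 FPKM in untreated cells (limma log2 fold change 0.63 ± 0.16 SE, adjusted p = 0.0258). Groups were apart in both. The Kif11 call was lost when untreated replicate 3 was left out (limma adjusted p = 0.0605) and the Kif4 call when TWEAK replicate 2 or untreated replicate 1 or 3 was left out (limma adjusted p 0.0842 to 0.0956). Kif4 overlaps 832 bases of Pdzd11, at 27.1 FPKM with TWEAK and 26.4 FPKM in untreated cells. Kif23, the motor of the central spindle, had 6.27, 8.38 and 3.96 FPKM with TWEAK, against 3.52, 4.37 and 2.70 FPKM in untreated cells (limma log2 fold change 0.64 ± 0.21 SE, adjusted p = 0.0777). Its trials spread from a low trial 3 to a high trial 2 in both groups. Kif20a, a motor of cytokinesis, had 9.39, 10.5 and 6.71 FPKM with TWEAK, against 5.93, 7.13 and 4.97 FPKM in untreated cells (limma log2 fold change 0.48 ± 0.16 SE, adjusted p = 0.0679). Kif2c, a microtubule depolymerase at centromeres, had 4.32, 4.78 and 2.50 FPKM with TWEAK, against 2.68, 2.91 and 2.28 FPKM in untreated cells (limma log2 fold change 0.40 ± 0.17 SE, adjusted p = 0.152). In these 3 genes TWEAK replicate 3 overlapped the untreated libraries. With the replicate block the adjusted p was 8.40e-05 for Kif23, 0.000216 for Kif20a and 0.00738 for Kif2c, and without TWEAK replicate 3 it was 0.0122, 0.0144 and 0.0072.

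All 7 genes of chromosome structure rose (median log2 fold change 0.68). Ncapg, a condensin I subunit (ENSMUSG00000015880.14, GRCm39 chromosome 5, 45827261 to 45857888), had the lowest adjusted p and the largest ratio of means of the 48, 2.08, with 4.93, 5.94 and 4.30 FPKM with TWEAK, against 2.34, 2.55 and 2.40 FPKM in untreated cells (limma log2 fold change 0.81 ± 0.10 SE, adjusted p = 0.00138). The untreated values of Ncapg were close together and far below the TWEAK values. The authors' deposited table lists it with a log2 fold change of 1.06 and an adjusted p of 5.62e-06. Ncapg overlaps Lcorl over 3366 bases, a gene at 1.33 FPKM with TWEAK and 1.60 FPKM in untreated cells. Smc2, an ATPase of both condensins, had 9.08, 12.4 and 8.76 FPKM with TWEAK, against 5.27, 6.30 and 5.97 FPKM in untreated cells (limma log2 fold change 0.68 ± 0.12 SE, adjusted p = 0.00717). Top2a, the topoisomerase that untangles sister chromatids, had 24.5, 32.1 and 21.2 FPKM with TWEAK, against 12.4, 17.1 and 13.1 FPKM in untreated cells (limma log2 fold change 0.82 ± 0.15 SE, adjusted p = 0.00841), the highest mean level of the 48 in either group. Both moved alike across the trials, with trial 2 highest in each group. Smc4, the partner of Smc2, had 17.2, 19.96 and 16.3 FPKM with TWEAK, against 14.3, 13.1 and 14.4 FPKM in untreated cells (limma log2 fold change 0.33 ± 0.08 SE, adjusted p = 0.032). Mki67, which encodes the Ki-67 antigen of cycling cells, had 8.42, 9.38 and 5.34 FPKM with TWEAK, against 4.47, 5.56 and 3.53 FPKM in untreated cells (limma log2 fold change 0.64 ± 0.19 SE, adjusted p = 0.0482). Smc4 changed little but varied little, while in Mki67 TWEAK replicate 3 lay just below untreated replicate 2. The Smc4 call was lost when TWEAK replicate 2 or untreated replicate 1, 2 or 3 was left out (limma adjusted p 0.0623 to 0.124). The Mki67 call was lost when TWEAK replicate 1 or 2 or untreated replicate 1, 2 or 3 was left out (limma adjusted p 0.0579 to 0.16) and under quantile normalization (0.0514). The condensin I subunit genes Ncaph and Ncapd2 rose by ratios of 1.73 and 1.56, the second call being lost when TWEAK replicate 2 or untreated replicate 1 or 3 was left out (limma adjusted p 0.0882 to 0.104).

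Cytokinesis genes rose in 3 of 4 cases and fell in 0 (median log2 fold change 0.50). Racgap1, a subunit of centralspindlin (ENSMUSG00000023015.15, GRCm39 chromosome 15, 99518377 to 99549537), had 18.7, 21.8 and 16.8 FPKM with TWEAK, against 12.5, 13.5 and 11.98 FPKM in untreated cells (limma log2 fold change 0.55 ± 0.10 SE, adjusted p = 0.00616). Anln, which encodes the actin-binding anillin of the cleavage furrow, had 15.6, 19.2 and 11.3 FPKM with TWEAK, against 8.07, 10.01 and 6.91 FPKM in untreated cells (limma log2 fold change 0.79 ± 0.18 SE, adjusted p = 0.0167). Ect2, the exchange factor that activates RhoA at the furrow, had 5.12, 6.91 and 4.42 FPKM with TWEAK, against 3.69, 3.77 and 3.60 FPKM in untreated cells (limma log2 fold change 0.45 ± 0.13 SE, adjusted p = 0.0426). The groups did not overlap in these 3 genes. The Anln call was lost when TWEAK replicate 2 or untreated replicate 3 was left out (limma adjusted p 0.0542 to 0.0605) and the Ect2 call when TWEAK replicate 1 or 2 or untreated replicate 1, 2 or 3 was left out (limma adjusted p 0.0519 to 0.11). Prc1, which crosslinks the central spindle, had 10.5, 12.4 and 7.96 FPKM with TWEAK, against 7.49, 9.05 and 6.997 FPKM in untreated cells (limma log2 fold change 0.34 ± 0.14 SE, adjusted p = 0.146), with TWEAK replicate 3 among the untreated libraries. Its adjusted p was 0.00378 with the replicate block and 0.0258 without TWEAK replicate 3.

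Within trials, the TWEAK library was the higher for 48 of 48 genes in trial 1, 48 in trial 2 and 47 in trial 3, and in all 3 for 47, against 30.9% of all tested genes. The median ratio of TWEAK to untreated FPKM was 1.67 in trial 1, 1.79 in trial 2 and 1.54 in trial 3. Trial 3 gave the smallest ratio for 34 of the 48 genes and trial 2 the largest for 28. The passenger complex had like medians in every trial (2.07, 1.84 and 1.88), whereas the centromere and kinetochore genes ran from 1.66 in trial 2 to 1.25 in trial 3 and the cytokinesis genes from 1.72 to 1.32. Differences between trials were not tested, since each holds 1 library per group.

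**Figure D3:**
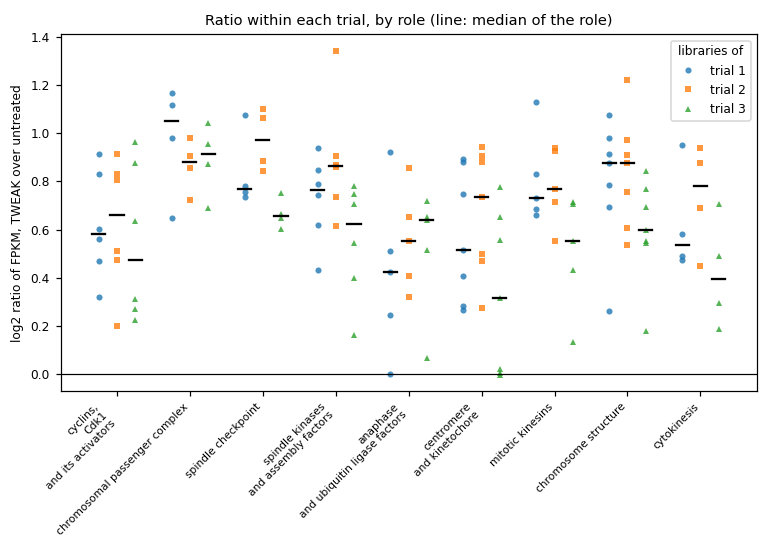
Log2 ratio of FPKM, TWEAK over untreated, for each gene within each trial, grouped by role, with the median of each role as a black line. Nearly every point lies above 0, and trial 3 gives the lowest median in every role but the chromosomal passenger complex and the anaphase and ubiquitin ligase factors.

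The regulators of this wave moved in part. Of 16 genes for MuvB, B-MYB, FOXM1 and E2F or pocket proteins, 6 rose and 0 fell (median log2 fold change 0.22), against 8.98% and 6.10% of all tested genes. The number that rose was 8 with the replicate block and 4 with quantile normalization. It was 2 without TWEAK replicate 2 and 3 without untreated replicate 1 or 2. Over all tested genes, 1147 rose in the main fit, 1965 with the replicate block and 1071 with quantile normalization. Without TWEAK replicate 2, untreated replicate 1 and untreated replicate 2, 501, 640 and 705 of all tested genes rose. Mybl2, which encodes B-MYB, was at 4.32 ± 1.13 FPKM with TWEAK and 1.62 ± 0.508 FPKM in untreated cells (SD, n = 3 each; limma log2 fold change 1.02 ± 0.17 SE, adjusted p = 0.00572), a ratio of 2.67 that exceeds each ratio among the 48. Foxm1 was at 5.28 ± 1.73 FPKM with TWEAK and 2.95 ± 0.700 FPKM in untreated cells (SD, n = 3 each; limma log2 fold change 0.65 ± 0.18 SE, adjusted p = 0.0448). E2f2 and Lin37 rose by ratios of 1.44 and 1.32 (limma adjusted p = 0.00246 and 0.0129), and E2f1 by 1.45 (limma adjusted p = 0.0466). The last of the 6 was the pocket protein gene Rbl1, with a ratio of 1.49 (limma adjusted p = 0.0453, 0.0506 with quantile normalization). Its call held in 2 of the 6 fits that left out a library. The MuvB subunit gene Lin9 was at 2.72 FPKM with TWEAK and 2.26 FPKM in untreated cells (limma adjusted p = 0.273). With quantile normalization the E2f1 adjusted p was 0.0517. The Foxm1 call was lost when TWEAK replicate 2 or untreated replicate 1 or 3 was left out (limma adjusted p 0.113 to 0.129), the Lin37 call when TWEAK replicate 2 or untreated replicate 2 was left out (limma adjusted p 0.051 to 0.0629) and the E2f1 call when TWEAK replicate 2 or 3 or untreated replicate 1, 2 or 3 was left out (limma adjusted p 0.0887 to 0.158).

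Other genes of cell division were listed for comparison. Of 13 further regulators of mitotic entry, 9 rose and 1 fell (median log2 fold change 0.48). Without TWEAK replicate 2, untreated replicate 1 or untreated replicate 3, 4 rose. Pkmyt1, a kinase that inhibits CDK1, rose by a ratio of 2.26, and Pbk and Melk, kinases of cycling cells, rose by 2.03 each (limma adjusted p = 0.00528, 0.00601 and 0.00673). The gene that fell was Cdc25b, a phosphatase that starts CDK1 activation, at 10.6 ± 0.245 FPKM with TWEAK and 14.5 ± 0.727 FPKM in untreated cells (SD, n = 3 each; limma log2 fold change -0.42 ± 0.07 SE, adjusted p = 0.00445). Wee1, the other CDK1 inhibitor kinase, was at 4.56 FPKM with TWEAK and 3.74 FPKM in untreated cells (limma adjusted p = 0.21, 0.0376 with the replicate block). Of 30 further spindle and cytokinesis genes, 15 rose and 0 fell (median 0.47), led by the microtubule destabilizer Stmn1, Tacc3 and Ncapg2 (limma adjusted p = 0.00428, 0.00732 and 0.0127). In that list 22 rose with the replicate block, and 4 without TWEAK replicate 2, untreated replicate 1 or untreated replicate 3. Of 32 further kinetochore and centromere genes, 14 rose and 0 fell (median 0.33), among them Oip5, Cenph and Zwilch by ratios of 2.13, 2.13 and 1.81 (limma adjusted p = 0.00578, 0.00641 and 0.00679). Here 21 rose with the replicate block, while 4 rose when TWEAK replicate 2 was left out, 5 when untreated replicate 1 was and 8 when untreated replicate 3 was. Oip5 overlaps Nusap1 over 172 bases.

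In the main fit 8.98% of all tested genes rose and 6.10% fell, and with the replicate block 15.4% rose. Of 17 genes of the anaphase-promoting complex and its regulators, 2 rose and 0 fell (median log2 fold change 0.05, 4 rising with the replicate block). They were the inhibitor Fbxo5, by a ratio of 2.24, and the activator Fzr1, by 1.20 (limma adjusted p = 0.00112 and 0.0335), the second lost when TWEAK replicate 2 or untreated replicate 1, 2 or 3 was left out (limma adjusted p 0.0804 to 0.15). Leaving out TWEAK replicate 2 or any untreated replicate left 1. Of 15 cohesin genes, 4 rose and 0 fell (median 0.02), and 2 rose without TWEAK replicate 2, untreated replicate 1 or untreated replicate 3. Cdca5, which encodes sororin, Esco2, a cohesin acetyltransferase, and Sgo1, the protector of centromeric cohesion, rose by ratios of 2.02, 2.18 and 1.84 (limma adjusted p = 0.000524, 0.00421 and 0.0217), and the Sgo1 call was lost when TWEAK replicate 2 or untreated replicate 1 or 3 was left out (limma adjusted p 0.0642 to 0.0808). Among the 11 that did not pass, the cohesin ring genes Smc1a, Smc3 and Rad21 were at ratios of 1.11, 1.09 and 1.02 (limma adjusted p = 0.134, 0.288 and 0.811); they were picked for naming after their values were seen.

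Earlier in the cycle, 37 of 41 genes of the G1-S step and DNA replication rose and 0 fell, with a median log2 fold change of 0.77, beside 30 of 48 and 0.59 for the mitosis and G2-M genes. Without TWEAK replicate 2 the counts were 22 of 41 and 19 of 48, and with the replicate block 40 and 43. The difference between these lists was not tested. Tk1, the thymidine kinase of S phase, was at 15.9 ± 3.79 FPKM with TWEAK and 5.74 ± 1.66 FPKM in untreated cells (SD, n = 3 each; limma adjusted p = 0.00298). Cdc45, a subunit of the replicative helicase, and Ccne1, the cyclin of S-phase entry, had adjusted p values of 0.00134 and 0.00328 in limma. Of 11 tested G1 cyclins, CDK inhibitors and Rb1, 3 rose and 0 fell, against 8.98% and 6.10% of all tested genes. With the replicate block 3 rose and 4 fell, against 15.4% and 12.5%. Without TWEAK replicate 2 or untreated replicate 1, 1 of the list rose. The 3 that rose in the main fit were Cdk6, Cdk4 and Ccnd1, by ratios of 2.10, 1.28 and 1.92 (limma adjusted p = 0.00561, 0.014 and 0.0226). The Cdk4 call was lost when TWEAK replicate 2 or untreated replicate 1 was left out (limma adjusted p 0.0666 to 0.0681) and the Ccnd1 call when TWEAK replicate 2 or 3 or untreated replicate 1 or 3 was left out (limma adjusted p 0.0536 to 0.0727). Cdkn1a, the p21 inhibitor of CDKs, was at 1041 ± 73.8 FPKM with TWEAK and 1136 ± 123.5 FPKM in untreated cells (SD, n = 3 each; limma adjusted p = 0.51), a level per length above that of every mitosis and G2-M gene in both groups. Rb1, the gene of the retinoblastoma protein, was at 24.1 FPKM with TWEAK and 30.6 FPKM in untreated cells (limma adjusted p = 0.0512, 0.00279 with the replicate block). The inhibitor genes Cdkn2a and Cdkn2b were listed at 0 in all 6 libraries.

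**Figure D4:**
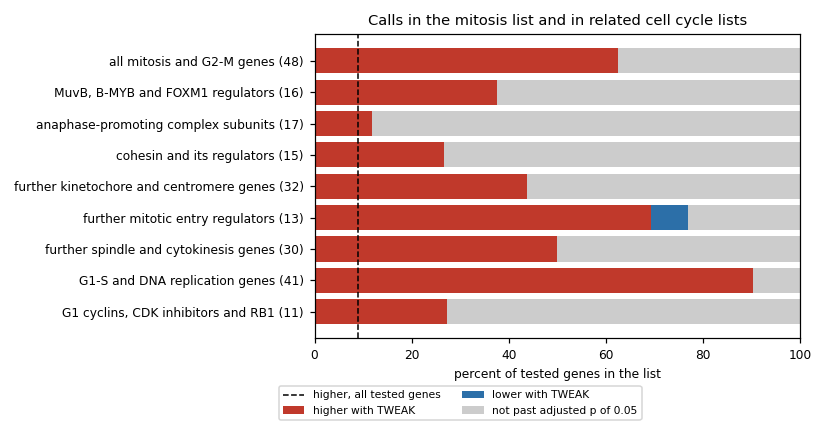
Percent of the tested genes in each list (number in brackets) that were higher with TWEAK, lower with TWEAK or not past an adjusted p of 0.05 in limma; the dashed line marks the 8.98% of all tested genes that were higher. The mitosis and G2-M list has 30 of 48 higher, and the anaphase-promoting complex list, with 2 of 17, lies nearest the line.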

How the data were processed

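RNA from 6 C2C12 libraries, 3 with TWEAK and 3 untreated, was read from 1 deposited table. Per the submitters' processing notes, the tools the authors named were DESeq2 1.22.2, HTSeq 0.6.1p2, STAR 2.6.0c and Trim Galore 0.5.0, and the build GRCm39. Their settings, the annotation release and whether counting used strand: not given in the sources used here. Per the file headers, the table gives FPKM for each library, and for the authors' own comparison a mean normalized count (a signal), a log2 fold change with its standard error, a test score, and p-values unadjusted and adjusted. Its mean is above 0 for 2337 genes listed at 0 FPKM in all 6 libraries, and why was not tested.

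The test was limma-trend (limma 3.58.1, R 4.3.3) on log2(FPKM + 1), with group as the only term, for the 12770 genes whose mean reached 0.5 FPKM; p-values are two-sided and adjusted over all of them by the Benjamini-Hochberg method. Ratios are of mean FPKM. FPKM were also turned into reads: each of the 126386 non-zero values gave a whole number (relative tolerance 1e-06). A gene's reads could share a common factor, which was taken as 1 except for 118 tested genes, Anln and Cdc25c among them, where gene length and deposited mean both spoke for another. Python 3.11.15, numpy 2.4.6, pandas 2.3.3 and matplotlib 3.10.9 were used.

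The trials were taken to pair the libraries: each library's deviation from its group mean was correlated across genes with that of its partner, giving r = 0.473 in trial 1, 0.218 in trial 2 and 0.434 in trial 3, and at most -0.02 for libraries of different trials. The pairing comes from these values and the shared trial numbers, not from a stated shared culture. Deviations cancel out within a group, so the values between different trials follow in part from those within trials and are no separate evidence. Members, lists and tests were chosen with earlier results of these data known. Full values are given for up to 3 genes of each role with the lowest adjusted p and up to 2 with the highest, and up to 3 risen and 3 fallen genes of each related list; a few fixed regulators were added. Alternatives were another pseudocount, other minimum levels, quantile normalization, limma-voom on the recovered reads scaled by trimmed means, the replicate block, and leaving out each library.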

Additional observations from a re-analysis of the deposited data

How the results depend on the processing

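No alternative turned the direction of a called gene among the 48 or the related lists. The number of mitosis and G2-M genes that rose was 30 with a pseudocount of 0.1, with a minimum mean of 1 FPKM and with limma-voom on recovered reads, 28 with quantile normalization, 43 with the replicate block and 6 with no minimum level, where 26302 genes were tested; leaving out single libraries gave 17 to 39, and 0 fell throughout. Their median log2 fold change was 0.72 with a pseudocount of 0.1, 0.75 with limma-voom, and 0.46 to 0.71 without single libraries. In the related lists 90 genes rose and 1 fell; 112 rose with the replicate block, 14 with no minimum level (0 to 8 in each list), and 40 to 91 rose and 1 to 3 fell without single libraries. The number that fell there was 2 with a minimum of 1 FPKM, 2 with quantile normalization, 4 with limma-voom and 5 with the replicate block. Over all tested genes, 1147 rose and 779 fell; this was 499 and 302 with no minimum level, 1965 and 1598 with the replicate block, and 501 to 1266 and 343 to 835 without single libraries. The replicate block changed no call among the 48 other than the 13 given beside their genes. Causes were not tested beyond the number of genes or samples that an alternative changes. Depth was at least 123 reads per library for the 46 genes above, and 3 libraries per group set the precision.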

Other observations

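Several genes of the 48 share bases with an expressed neighbour, and the sources used here do not say whether counting used strand. Beside those given above, Ccna2 overlaps 863 bases of Exosc9 (20.6 FPKM with TWEAK and 18.05 FPKM in untreated cells), Kif20a 2327 bases of Cdc23 (14.5 FPKM with TWEAK and 13.97 FPKM in untreated cells), Prc1 670 bases of Rccd1 (4.34 FPKM with TWEAK and 4.43 FPKM in untreated cells) and Cdc20 53 bases of Elovl1 (54.2 FPKM with TWEAK and 48.5 FPKM in untreated cells).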
